A study of Homo sapiens with 18 samples.

Results

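The 50 genes described here build and control the DNA replication machinery of SKOV-3 cells, a human ovarian carcinoma line. They were listed by function, as origin licensing factors, the MCM2-7 helicase, origin firing factors, DNA polymerases, the sliding clamp with its partners, chromatin assembly and helicase factors, and the E2F, CDK and pocket-protein genes that control the step from G1 into S phase. All 50 had at least 1 probe set on the Affymetrix U133 Plus 2.0 arrays that listed the gene alone, and the brightest of these stood for the gene, as for all 19775 genes with such a probe set. The 18 arrays form 6 groups of 3 independent replicates. LHR- are SKOV-3 cells that do not express the luteinizing hormone receptor, which the methods describe as the parent line and the study elsewhere as mock-transfected cells. LHR+ are SKOV-3 cells stably transfected with LHR and given no LH, and LH1, LH4, LH8 and LH20 are LHR+ cells given LH at 50 ng/ml for 1, 4, 8 and 20 h. No LHR- cells given LH are among these arrays, and all 4 LH times are compared with the same 3 LHR+ arrays, so a time in culture without LH and the time with LH cannot be told apart. In LHR+/LHR-, expression of the receptor and any other difference between the stably transfected and the LHR- cells cannot be told apart either.

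DNA is copied from origins that are prepared in G1, when the origin recognition complex, CDC6 and CDT1 load the ring-shaped MCM2-7 helicase. On entry into S phase the kinase CDC7, with its activating subunit DBF4, and cyclin-dependent kinases turn the loaded rings into active helicases with CDC45 and GINS, and the polymerases, the clamp PCNA and its loader RFC follow. Many of these genes are transcribed at the G1/S boundary by E2F factors, which are held back by pocket proteins of the retinoblastoma family, while genes for mitosis are switched on later through promoter elements named CHR and CCAAT.

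The intensities are linear values summarized per probe set, and their median per array lay between 46.9 and 57.9. The array's LHCGR probe set read 0.196 to 4.11 on every array, LHR+ arrays included, so it gives no check of the receptor labels, and the sources do not say which LHR sequence the construct carried. KRT7, KRT8, KRT18, KRT19 and ERBB2 were bright in every group, as in an epithelial carcinoma line, whereas CDH1 was at 51.6 or below in every group mean. The 5 endothelial and 4 immune markers measured stayed under 50 on every array. The summed level of the 7 epithelial markers was 23306 to 26619 in LHR-, 21571 to 23728 in LHR+, 20022 to 24231 in LH1, 23145 to 25306 in LH4, 27312 to 28940 in LH8 and 31808 to 33153 in LH20. That of the 6 fibroblast markers was 22039 to 22787 in LHR- and 12402 to 13494 in LHR+, with LUM at 5117 and 21.0 in the group means. It was 12688 to 14731 in LH1, 13912 to 14493 in LH4, 14671 to 16430 in LH8 and 15770 to 17370 in LH20. The ratio of 3' to 5' ACTB probe sets was 7.18 to 16.7, highest in LHR- replicate 2. The part of these values in the results was not tested. In bulk RNA, fewer cells in a phase of the cycle and less RNA per cell cannot be told apart.

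Promoter sequences from RefSeq (GRCh38.p14, 250 bases before to 50 after each start site) matched 42 of the 50 genes. MCM4, MCM5, GINS4, POLD3, RPA2, RPA3, E2F8 and CDK2 had none in the table. The E2F words TTTGGCGC, TTTCCCGC, TTTGCCGC and TTTCGCGC, read on both strands, stood in the promoters of 24 of the 42 genes (57.1%), against 3.99% of 27305 genes in the table. The CHR word TTTGAA stood in those of 3 of the 42 (7.14%), namely PIF1, DBF4 and E2F3, against 18.2% of all genes, and CCAAT in those of 24 (57.1%), against 39.7%. In a list of 32 G2/M and mitosis genes, 26 of which had a promoter in the table, the CHR word stood in 18 (69.2%), CCAAT in 21 (80.8%) and an E2F word in 3 (11.5%). A match is a description of the letters and not a measured site.

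The stretch from 160 bases before to 20 after the start site is printed 5′ to 3′ for 6 members that moved in different ways under LH, with E2F and CHR words in capitals. PIF1 (chr15:64825628-64825807, minus strand) and DBF4 (chr7:87876333-87876512, plus strand) carry the CHR word and no E2F word, and both fell at 4 and 20 h. CDC6 (chr17:40287719-40287898, plus strand) and MCM6 (chr2:135876424-135876603, minus strand) carry E2F words and rose at 4 h before falling at 20 h. E2F2 (chr1:23531214-23531393, minus strand) and LIG1 (chr19:48170325-48170504, minus strand) carry an E2F word and rose at 20 h. Words and courses did not go together throughout the members. E2F3, not printed, carries a CHR and an E2F word and rose at 4 h. POLA2, RFC3, GINS1 and UHRF1 carry an E2F word and no CHR word and fell at 20 h.
PIF1: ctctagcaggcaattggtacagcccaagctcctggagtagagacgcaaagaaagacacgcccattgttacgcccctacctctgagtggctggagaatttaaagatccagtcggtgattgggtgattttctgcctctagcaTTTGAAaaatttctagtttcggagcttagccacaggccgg
DBF4: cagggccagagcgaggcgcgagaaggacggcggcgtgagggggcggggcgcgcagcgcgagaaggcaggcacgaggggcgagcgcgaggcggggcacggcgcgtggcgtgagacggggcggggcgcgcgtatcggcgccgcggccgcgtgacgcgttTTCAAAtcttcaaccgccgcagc
CDC6: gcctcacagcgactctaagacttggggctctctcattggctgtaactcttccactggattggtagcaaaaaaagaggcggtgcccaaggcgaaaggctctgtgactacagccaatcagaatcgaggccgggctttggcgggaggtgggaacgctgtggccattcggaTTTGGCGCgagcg
MCM6: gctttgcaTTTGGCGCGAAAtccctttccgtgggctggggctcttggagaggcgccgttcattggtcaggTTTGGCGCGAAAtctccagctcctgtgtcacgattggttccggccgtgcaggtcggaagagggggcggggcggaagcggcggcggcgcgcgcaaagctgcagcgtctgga
E2F2: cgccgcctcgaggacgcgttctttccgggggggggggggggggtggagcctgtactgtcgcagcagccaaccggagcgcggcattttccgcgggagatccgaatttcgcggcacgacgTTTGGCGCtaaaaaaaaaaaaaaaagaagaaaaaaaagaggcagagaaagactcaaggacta
LIG1: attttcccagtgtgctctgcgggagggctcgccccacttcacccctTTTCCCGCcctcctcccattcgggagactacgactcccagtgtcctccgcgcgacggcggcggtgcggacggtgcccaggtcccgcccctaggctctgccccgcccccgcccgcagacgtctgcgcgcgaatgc
In DBF4 the capitals read TTCAAA, the CHR word on the other strand. In MCM6, E2F words on both strands overlap in each of the capital runs.

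Most replication genes changed by less than 2-fold in every comparison, and the median over the members was furthest from 0 in LHR+/LHR- (log2 -0.21). A gene was called where limma's moderated test gave p under 0.05 and a Benjamini-Hochberg adjusted p under 0.1 over all 19775 genes, the fold was at least 2, and the triplicates of the groups did not overlap. A gene that met the p and adjusted p thresholds, whatever its fold and separation, is said to have passed. The called genes are thus among those that passed. Of the members, 6 were called in at least 1 of 8 comparisons and 32 passed in at least 1. The share of all genes over the 8 comparisons together was not counted, so these 2 counts are not read as a trait of the members. In LH20/LHR+ alone, 16% of all genes passed upward and 18% downward. The 18 members that passed in none were ORC1, ORC2, CDT1, MCM2, MCM4, MCM7, GINS2, GINS4, POLA1, PRIM1, PRIM2, PCNA, RFC5, RPA1, RPA2, RPA3, CHAF1A and CHAF1B, which includes the clamp and the whole of RPA.

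In LHR+/LHR-, 0 of the 50 members were called by limma, against 4.63% of all genes, and 14 had an unadjusted p under 0.05. On adjusted p alone 9 fell and 1 rose, that is 18% and 2% of the members, beside 8.22% and 10.4% of all genes. The log2 fold change was below 0 in 42 of 50, with a median of -0.21 beside -0.0035 over all genes. PIF1 missed the fold threshold narrowly at 1.99-fold lower (no overlap between the triplicates), and it was the 1 member called without LHR- replicate 1, without LHR+ replicate 2 or without LHR+ replicate 3. In LH1/LHR+, 0 members were called by limma, against 0.324% of all genes. None passed, beside 0.865% of all genes, and 5 had an unadjusted p under 0.05.

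In LH4/LHR+, 4 of the 50 members were called, all lower (8% of members, beside 0.925% of all genes called lower and 2.23% called in either direction), and 7 passed downward and 4 upward (14% and 8%, beside 5.97% and 4.9%). The median log2 fold change was -0.039, so the calls lay in a tail and not in a shift of the list. In LH8/LHR+, 0 members were called by limma, against 1.73% of all genes, and 8 had an unadjusted p under 0.05. Upward 4 passed and downward 1 (8% and 2%, beside 5.19% and 5.73% of all genes). In LH20/LHR+, 3 were called lower (6% beside 3.88%) and 0 higher (beside 3.83%), while 18 passed downward and 7 upward (36% and 14%, beside 18% and 16% of all genes). The median there was -0.12, and 42 of the 50 members were brighter than the median gene. The count of members passing downward at 20 h was a larger share than that of all genes, and the upward count was not. The share among genes of like brightness was not counted.

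Between neighbouring times, 3 members were called lower in LH4/LH1 and 5 passed upward (beside 0.951% and 4.4% of all genes), 3 were called higher in LH8/LH4 (beside 0.657%), and 2 were called lower in LH20/LH8 (beside 2.23%). In LH20/LH8, 19 members passed downward and 4 upward, beside 13.5% and 12.1% of all genes. Of the 18 members lower in LH20/LHR+, 17 also passed downward in LH20/LH8. These comparisons share the LH20 arrays.

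**Figure D1:**
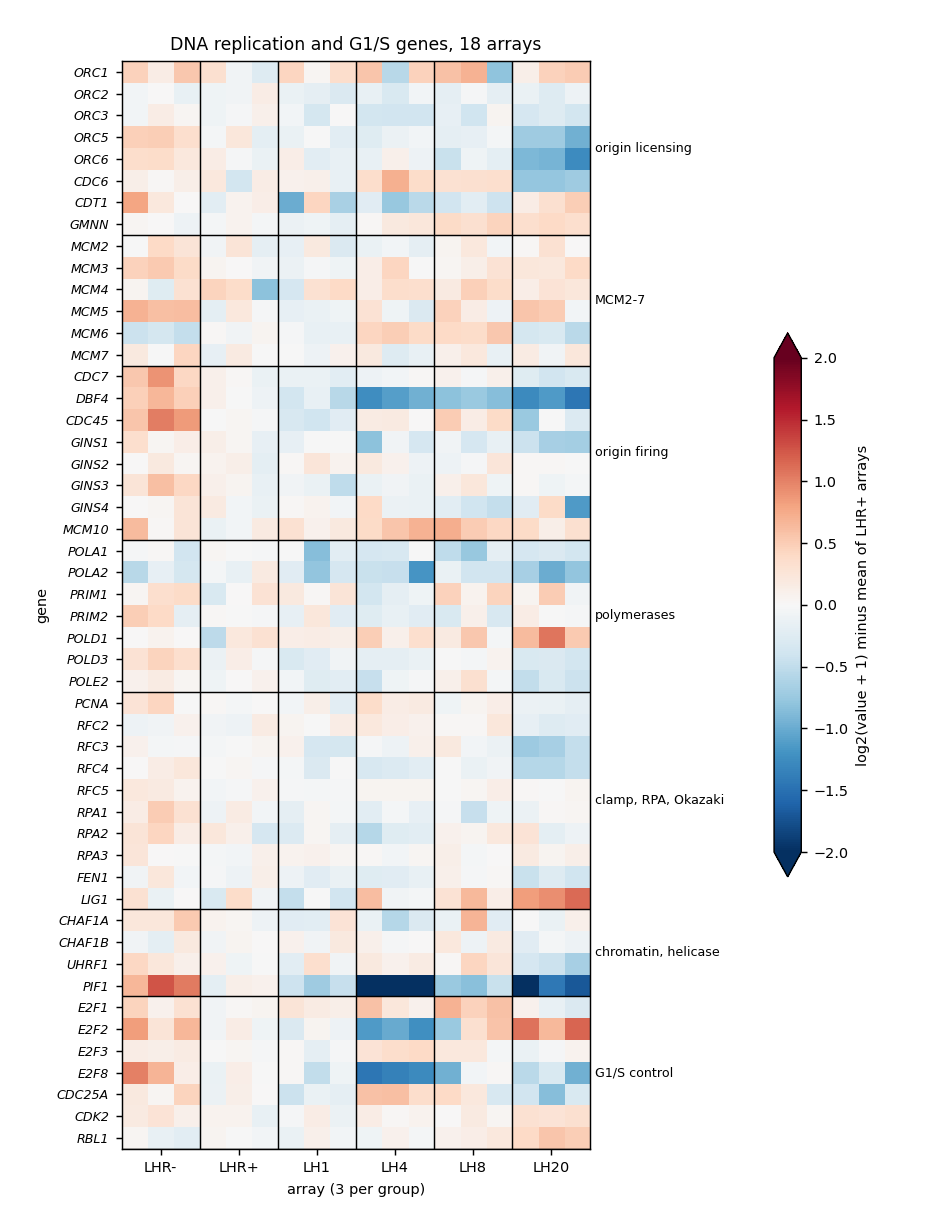
Log2(intensity + 1) of each of the 50 genes on each of the 18 arrays, minus the mean of the 3 LHR+ arrays of that gene (colour, red higher and blue lower, colours end at 2 and -2), with genes in rows by role and arrays in columns by group. PIF1, DBF4 and E2F8 are blue in all 3 LH4 arrays, while ORC5, ORC6 and CDC6 turn blue in the 3 LH20 arrays.

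Among the origin licensing genes, 4 of 8 passed downward in LH20/LHR+ (50%, beside 18% of all genes). GMNN alone passed upward (12.5%, beside 16%). ORC6, the smallest subunit of the origin recognition complex, read 1442, 1281 and 1190 in LHR+, 1171, 1390 and 1209 in LH4, and 696, 680 and 541 in LH20. The LH20 arrays lay below all others, and the LH4 and LHR+ arrays overlapped. The fall at 20 h was 2.05-fold (log2 -1.03 ± 0.13 SE, limma adjusted p = 5.08e-05, n = 3). It went under the 2-fold threshold without LHR+ replicate 1 (log2 -0.96), without LH20 replicate 3 (log2 -0.92) and after quantile normalization (log2 -0.99).

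ORC5, another subunit of the complex, read 699, 701 and 631 in LHR-, 486, 587 and 439 in LHR+, and 305, 305 and 256 in LH20. It thus stepped down at both ends of the series, by 0.43 on the log2 scale in LHR+/LHR- and by 0.79 in LH20/LHR+ (limma adjusted p = 0.0166 and 9.92e-05), with log2 -0.14 at 4 h. ORC3 fell by 0.32 at 20 h. ORC1 and ORC2, further subunits, passed in no comparison, and ORC1 spread from 46.9 to 135 within the LH8 group alone.

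CDC6, the ATPase that joins the origin recognition complex to load MCM2-7, read 366, 245 and 350 in LHR+, 404, 518 and 409 in LH4, 389, 395 and 400 in LH8, and 184, 184 and 193 in LH20. All LH4 and LH8 arrays lay above all LHR+ arrays, and all LH20 arrays lay below them. CDC6 rose by 0.48 ± 0.14 (log2, SE) at 4 h (limma adjusted p = 0.0488) and fell 2.10-fold from 8 to 20 h (log2 -1.07, adjusted p = 0.000116). Its other probe set fell by 0.85 in the same step, short of 2-fold.

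GMNN, which encodes geminin, the inhibitor that binds CDT1 and blocks new licensing, went the other way. It read 2697, 2912 and 2695 in LHR+, 3588, 3464 and 3760 in LH8, and 3494, 3650 and 3504 in LH20, with no overlap between LHR+ and either time. The log2 fold change was 0.38 at 8 h and 0.36 at 20 h (limma adjusted p = 0.00469 and 0.00156). CDT1 itself was too variable for its difference to pass, with LH1 arrays at 172, 466 and 218.

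Of the MCM2-7 helicase, MCM6 was the only subunit that passed at all of 4, 8 and 20 h. It read 1160, 1224 and 1118 in LHR-, 1583, 1479 and 1609 in LHR+, 2091, 2186 and 2034 in LH4, 2041, 2001 and 2264 in LH8, and 1220, 1258 and 1065 in LH20. No LH4 or LH8 array overlapped LHR+, and the LH20 arrays overlapped the LHR- arrays. The log2 fold changes against LHR+ were 0.43 at 4 h, 0.43 at 8 h and -0.40 at 20 h, each ± 0.08 (SE, limma adjusted p = 0.0037, 0.00449 and 0.00167). From 8 to 20 h MCM6 fell by 0.83, which is 1.78-fold. Its dimmer probe set gave 1.43 ± 0.22 at 4 h and -0.91 ± 0.22 at 20 h.

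The other 5 subunits did not share this course. MCM3 and MCM5 were lower in LHR+ than in LHR-, by 0.46 and 0.64 on the log2 scale (limma adjusted p = 0.00936 and 0.0372). MCM3 rose by 0.28 at 20 h, from 666, 640 and 609 in LHR+ to 747, 737 and 840. MCM2, MCM4 and MCM7 passed in no comparison, and MCM4 had an LHR+ array at 991 beside 2393 and 2260.

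Among origin firing genes DBF4 had the largest fall at both 4 and 20 h. DBF4, a regulatory subunit that activates the CDC7 kinase, read 1303, 1473 and 1303 in LHR-, 1005, 925 and 872 in LHR+, and 721, 844 and 632 in LH1. It then read 395, 434 and 477 in LH4, 526, 556 and 515 in LH8, and 387, 423 and 340 in LH20. LHR+ arrays lay below all LHR- arrays, and every array at 4, 8 and 20 h lay below every LHR+ array. The falls against LHR+ were 2.15-fold at 4 h (log2 -1.10 ± 0.12 SE, limma adjusted p = 3.41e-05), 1.75-fold at 8 h and 2.44-fold at 20 h (log2 -1.29 ± 0.12, adjusted p = 2.5e-06).

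CDC7, the kinase subunit of the pair, moved less. It read 852, 810 and 722 in LHR+ and 736, 760 and 802 in LH4, which overlap, and 672, 608 and 641 in LH20. It fell by 0.62 in LHR+/LHR- and by 0.31 at 20 h (limma adjusted p = 0.0015 and 0.0457), and its log2 fold change at 4 h was -0.05 ± 0.11.

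CDC45, which joins MCM2-7 in the active helicase, had the largest log2 fold change of the firing genes in LHR+/LHR-. It read 263, 365 and 325 in LHR- and 178, 184 and 175 in LHR+, a fall of 1.76-fold (limma adjusted p = 0.00459) with no overlap. MCM10, a helicase activator, rose by 0.54 at 4 h and 0.55 at 8 h (adjusted p = 0.042 and 0.0399). GINS1 and GINS3, 2 of the 4 GINS subunits, passed downward in different comparisons, GINS1 in LH20/LHR+ (log2 -0.59) and GINS3 in LHR+/LHR- (log2 -0.42).

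**Figure D2:**
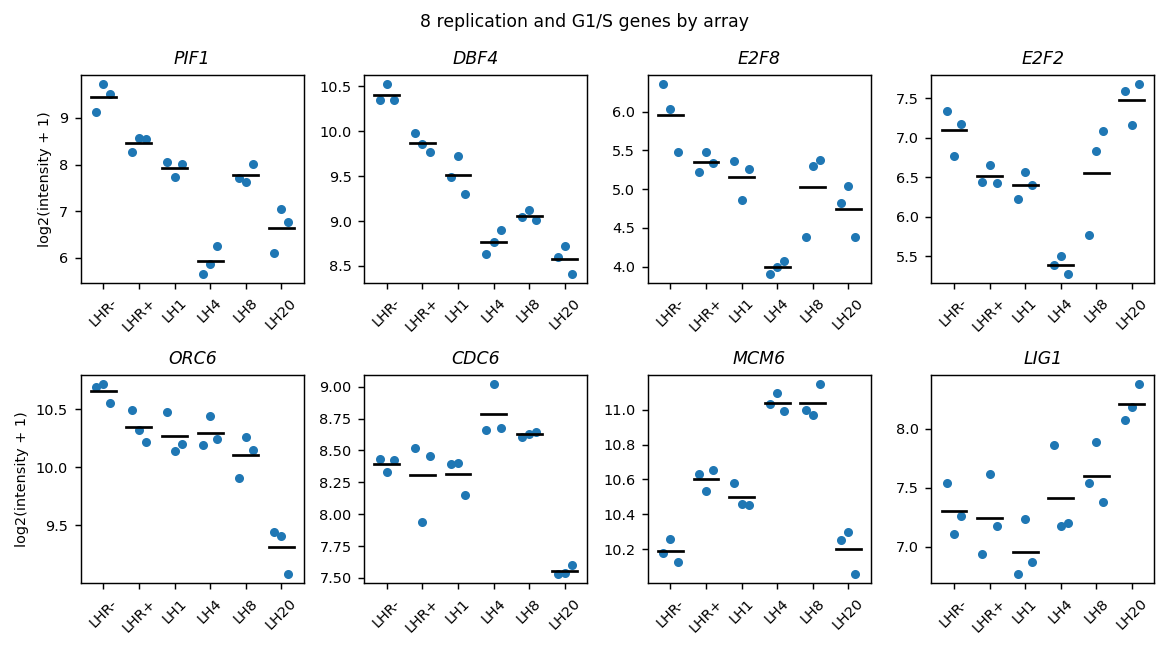
Log2(intensity + 1) on each array (points) and group mean (line) for 8 genes, with groups on the x axis and a y axis of its own range in each panel. PIF1, DBF4, E2F8 and E2F2 reach their lowest or nearly lowest level at LH4, ORC6 and CDC6 are lowest at LH20, MCM6 is highest at LH4 and LH8, and LIG1 is highest at LH20.

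Of the 7 polymerase genes, 3 passed downward and 1 upward at 20 h (42.9% and 14.3%, beside 18% and 16% of all genes). POLA2, the B subunit of the priming polymerase alpha, read 203, 187 and 237 in LHR+ and 131, 104 and 120 in LH20, without overlap (log2 -0.82 ± 0.20 SE, limma adjusted p = 0.00734). It also fell by 0.70 at 4 h, where another of its probe sets, of like brightness, gave 0.37 ± 0.19. POLD3 and POLE2, accessory subunits of polymerases delta and epsilon, fell by 0.33 and 0.41 at 20 h. POLD1, the catalytic subunit of polymerase delta, read 49.9, 83.4 and 89.1 in LHR+ and 112, 151 and 104 in LH20. All LH20 arrays lay above all LHR+ arrays, a rise of 1.67-fold (log2 0.74 ± 0.21, adjusted p = 0.0159). Subunits of the same enzyme, POLD1 and POLD3, thus passed in opposite directions at 20 h.

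In the group of clamp, RPA and Okazaki fragment genes, 4 of 10 passed downward at 20 h (40%, beside 18% of all genes). Upward, 1 passed (10%, beside 16%). The RFC complex opens the PCNA ring and loads it on DNA, and RFC2, RFC3 and RFC4 fell by 0.22, 0.62 and 0.54 on the log2 scale (limma adjusted p = 0.0867, 0.00131 and 0.000243). RFC3 read 895, 919 and 952 in LHR+ and 556, 581 and 662 in LH20, well apart. PCNA itself read 2908, 2810 and 2899 in LHR+ and 2648, 2617 and 2528 in LH20 (log2 -0.15 ± 0.11), which did not pass. FEN1, the nuclease that trims Okazaki fragments, fell by 0.37.

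LIG1, the ligase that seals those fragments, read 122, 195 and 144 in LHR+, 232, 144 and 146 in LH4, and 269, 289 and 331 in LH20. The LH20 arrays lay above every other array, while LH4 overlapped LHR+. The rise at 20 h was 1.96-fold (log2 0.97 ± 0.22 SE, limma adjusted p = 0.00455). LIG1 met the fold threshold as well without LHR+ replicate 2, where 5 members were called, or without LH20 replicate 1, where 4 were. FEN1 and LIG1, which act one after the other on lagging-strand fragments, thus differed in direction at 20 h.

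The chromatin and helicase group held the member with the largest change of all. PIF1, a 5′ to 3′ DNA helicase that acts at G-quadruplexes and telomeres, read 556, 846 and 726 in LHR-, 308, 379 and 372 in LHR+, and 263, 213 and 256 in LH1. It then read 49.6, 57.6 and 75.4 in LH4, 209, 196 and 259 in LH8, and 68.0, 131 and 108 in LH20. LH4 and LH20 arrays lay below all arrays of the other groups, and LH4 overlapped LH20 at its upper end. The fall was 5.78-fold at 4 h (log2 -2.53 ± 0.23 SE, limma adjusted p = 8.38e-06) and 3.54-fold at 20 h (log2 -1.82, adjusted p = 4.96e-05).

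Between these times PIF1 partly returned. It rose 3.62-fold from 4 to 8 h and fell again 2.21-fold from 8 to 20 h (limma adjusted p = 0.000448 and 0.00314), and without LH20 replicate 1 the latter was -0.88 on the log2 scale, under the threshold. Its dim other probe set gave -1.50 ± 0.86 at 4 h and did not pass. With the mean of both probe sets PIF1 was still called at 4 h against LHR+ (log2 -2.02, adjusted p = 0.0215), but the call was lost at 20 h against LHR+ (log2 -1.19, adjusted p = 0.0887), from 1 to 4 h (log2 -1.56), from 4 to 8 h (log2 1.44, adjusted p = 0.138) and from 8 to 20 h (log2 -0.61, adjusted p = 0.467). UHRF1, which keeps DNA methylation on newly made strands, fell by 0.48 at 20 h (adjusted p = 0.0221), from 1413, 1254 and 1321 to 1052, 985 and 834. The chromatin assembly subunits CHAF1A and CHAF1B passed in no comparison.

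**Figure D3:**
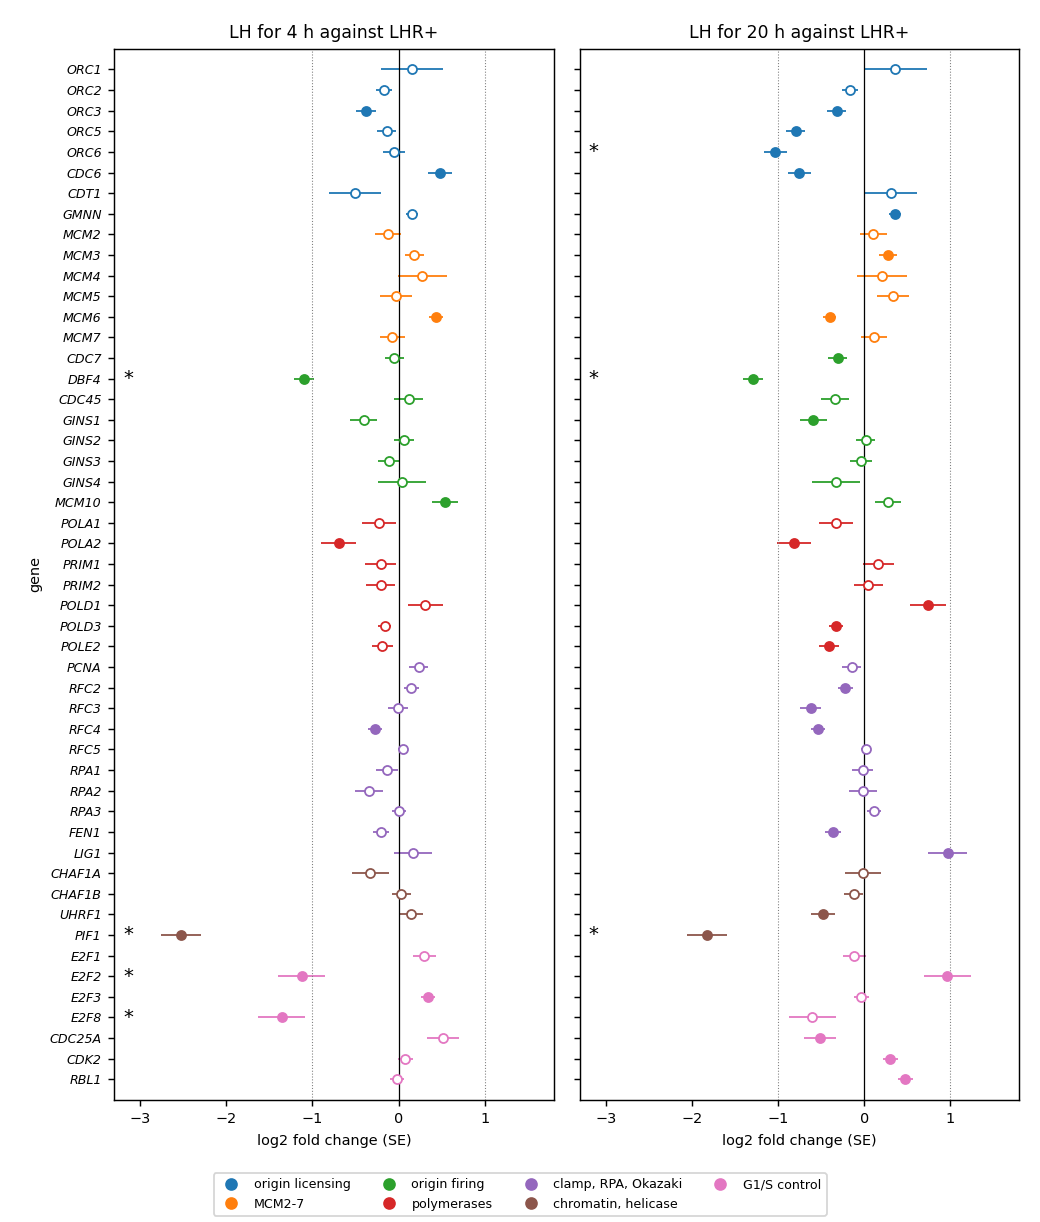
Log2 fold change with its standard error for each of the 50 genes (y axis, coloured by role) in LH4 (left) and LH20 (right) against LHR+, with filled points for an adjusted p under 0.1, an asterisk for a called gene and dotted lines at 2-fold. PIF1 lies at -2.53 and -1.82, and DBF4 at -1.10 and -1.29, whereas E2F2 lies at -1.12 on the left and 0.97 on the right.

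The G1/S control genes split by family member. E2F8, an atypical E2F that represses E2F targets, read 36.4, 43.8 and 39.6 in LHR+, 14.0, 15.0 and 15.8 in LH4, and 19.9, 38.5 and 40.7 in LH8. LH4 arrays lay below all others. E2F8 fell 2.56-fold at 4 h (log2 -1.36 ± 0.27 SE, limma adjusted p = 0.00675), at levels where 31% to 34.5% of an array's values lie under 16. With 16 in place of 1 added to each intensity the log2 fold change was -0.85. It also fell 2.24-fold from 1 to 4 h (adjusted p = 0.02). The return from 4 to 8 h was called (2.04-fold, adjusted p = 0.0437), but it was lost without any 1 LH4 array and without LH8 replicate 2 or 3, where log2 values of 0.85 to 1.07 had adjusted p of 0.1 to 0.15.

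E2F2, an activating E2F, read 86.1, 100 and 85.2 in LHR+, 40.8, 44.3 and 37.8 in LH4, 53.4, 113 and 135 in LH8, and 192, 142 and 205 in LH20. LH4 arrays lay below all others and LH20 arrays above all LHR+ arrays, so E2F2 both fell and rose. The log2 fold change was -1.12 ± 0.27 (SE, limma adjusted p = 0.0212) at 4 h and 0.97 ± 0.27 (adjusted p = 0.0162) at 20 h. The latter met the fold threshold without LHR+ replicate 2 or LH20 replicate 2. The rise from 4 to 8 h (2.25-fold) dropped to 0.91 on the log2 scale without LH8 replicate 3.

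The 2 other probe sets of E2F2 were dim and gave 0.64 ± 0.76 and 0.61 ± 0.79 at 4 h, so the mean over its probe sets was 0.042 there. The fall from 1 to 4 h (2.02-fold) was called with all arrays, but not without LH1 replicate 2, LH1 replicate 3, LH4 replicate 1 or LH4 replicate 3, with log2 values of -0.93 to -1.01.

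E2F1 and E2F3, further activating E2Fs, rose by smaller amounts, E2F1 by 0.58 at 8 h and E2F3 by 0.34 at 4 h (limma adjusted p = 0.0177 and 0.0225). The rise of E2F1 did not last. Its group mean was highest in LH8 and lowest in LH20, 0.69 apart on the log2 scale. CDC25A, the phosphatase that activates CDK2, read 161, 191 and 176 in LHR+, 263, 267 and 224 in LH4, and 135, 96.5 and 141 in LH20. Its LH4 arrays lay above and its LH20 arrays below all LHR+ arrays. The log2 fold change of 0.51 at 4 h did not pass against LHR+, although the gene was called higher there with the mean of all its probe sets, whereas the rise of 0.76 from 1 to 4 h and the fall of 0.52 at 20 h did (adjusted p = 0.0267 and 0.0542).

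RBL1, which encodes the pocket protein p107, read 805, 773 and 749 in LHR+ and 1024, 1134 and 1088 in LH20, with no overlap (log2 0.48 ± 0.09 SE, limma adjusted p = 0.000814). CDK2, the kinase that partners cyclins E and A, rose by 0.30 at 20 h (adjusted p = 0.0186).

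Other genes of the pathway, listed by function, are given beside the members. Of 27 further replication genes, 13 passed downward and 0 upward at 20 h (48.1% and 0%, beside 18% and 16% of all genes). CLSPN, which encodes the fork protein claspin, read 159, 149 and 169 in LHR+ and 70.9, 47.0 and 28.8 in LH20 (log2 -1.77, limma adjusted p = 0.000352), and DSCC1, part of an alternative clamp loader, fell by 1.26. Of 8 genes of deoxynucleotide supply, 3 passed downward and 2 upward (37.5% and 25%), and 0 were called by limma. Of 9 S-phase checkpoint genes, 1 passed downward and 3 upward (11.1% and 33.3%).

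Among 26 cyclins, CDKs, their inhibitors and RB family genes, 1 was called higher and 3 lower at 20 h (3.85% and 11.5%, beside 3.83% and 3.88% of all genes). CDKN1C, the CDK inhibitor p57, read 312, 295 and 358 in LHR-, 801, 852 and 744 in LHR+, 4148, 4323 and 4098 in LH4, and 5326, 5463 and 5378 in LH20. It rose in LHR+/LHR- (log2 1.31) and again in LH20/LHR+ (log2 2.76, limma adjusted p = 5.3e-10), and no 2 of these groups overlapped. CCND1, which encodes cyclin D1, fell by 2.62, from 1164, 1022 and 959 in LHR+ to 171, 156 and 182 in LH20. MYBL2, a cell cycle transcription factor, and E2F7, the other atypical E2F, fell by 2.54 and 1.45.

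Of the 32 G2/M and mitosis genes, 1 was called lower in LHR+/LHR- (BUB1, a spindle checkpoint kinase, log2 -1.27, beside 2.06% of all genes). In LH4/LHR+ 18 were called lower (beside 0.925%), in LH8/LHR+ 2 (beside 0.728%) and in LH20/LHR+ 16 (beside 3.88%). The median log2 fold changes of the 32 genes were -0.39, -1.10, -0.63 and -1.04 in these comparisons. Those of the 50 replication and G1/S genes were -0.21, -0.039, 0.061 and -0.12. At 20 h the largest called falls of the list were those of MKI67 (-2.19), BUB1 (-1.65) and CENPA (-1.56).

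**Figure D4:**
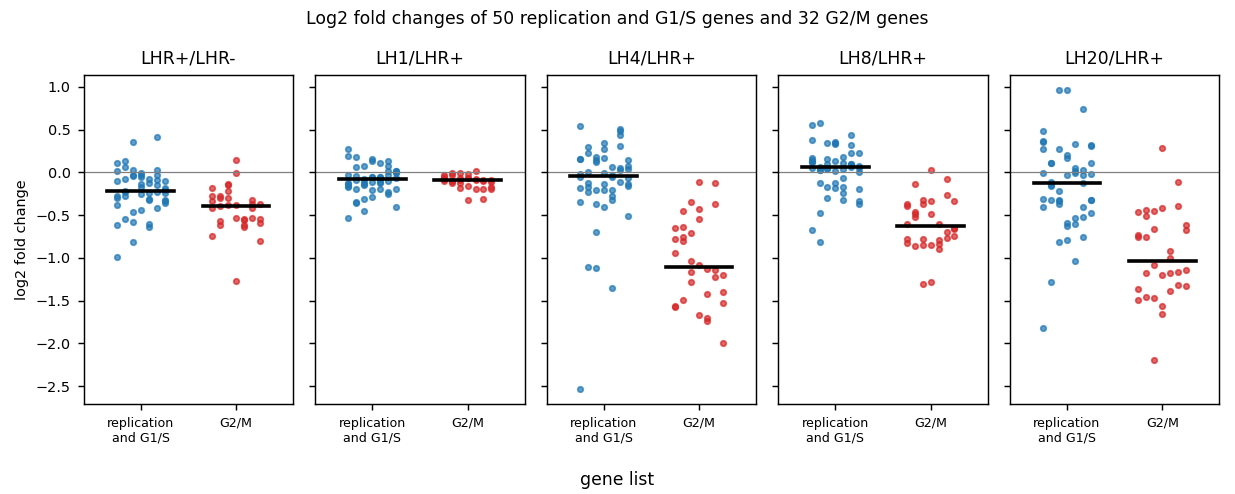
Log2 fold change of each of the 50 replication and G1/S genes (blue) and 32 G2/M genes (red) in 5 comparisons (panels), with the median as a black line. At LH4 the medians are -0.039 and -1.10, and the 4 lowest blue points are PIF1, E2F8, E2F2 and DBF4.

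A few members followed the G2/M genes across the groups. Over the 6 group means, the correlation with the mean of the 32 G2/M genes was 0.98 for DBF4, 0.97 for ORC3, 0.96 for PIF1, 0.95 for GINS1 and 0.92 for E2F8, with a median of 0.42 over the 50 members. It was below 0 for 9 members, lowest for MCM4 and POLD1 at -0.80 each and GMNN at -0.73. These points share arrays, so the values only describe the courses. PIF1 and DBF4 are the 2 members in this leading group that carry the CHR word, while ORC3 and GINS1 carry an E2F word and no CHR word, and E2F8 had no promoter in the table. The remaining member with the CHR word, E2F3, also carries an E2F word, and its correlation was -0.31.

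Among the members themselves, 1225 pairs had a median correlation of 0.24 over the 6 group means, with 111 pairs above 0.8 and 415 below 0. Of the 50 members, 26 had their highest group mean in LHR- and 19 their lowest in LH20, whereas 6 were highest in LH4, 8 in LH8 and 6 in LH20. The range of the group means was under 0.5 on the log2 scale in 18 members, with a median of 0.60 over all 50.

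Several members have probe sets that did not move alike. A dimmer CDC25A probe set fell by 1.90 at 20 h and a dim POLD3 probe set by 1.62, each more than the probe set used here. A dim RPA1 probe set rose by 1.81 at 20 h while the 2 brighter ones gave -0.019 and -0.084. A dim RFC3 probe set fell by 1.01 at 4 h, where the probe set used gave -0.0079. The probe sets used for ORC6, CDT1 and CHAF1A are of a type whose probes may also match other transcripts.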

How the data were processed

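The values are the deposited series matrix table of 54675 probe sets, as linear intensity per array. The authors amplified total RNA as cDNA, hybridized it to Affymetrix U133 Plus 2.0 arrays and summarized the probes. The labels name PLIER and the methods name RMA, and no version or scaling is given in the sources used here. Of the probe sets, 41097 list 1 gene symbol, 1801 several and 11777 none in the platform annotation. Genes took the probe set with the highest mean log2(value + 1) among those with 1 symbol.

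All 18 arrays were fitted with 1 mean per group in limma 3.58.1 (R 4.3.3) on log2(value + 1), with Benjamini-Hochberg adjustment over 19775 genes. Limma took the place of the methods' ANOVA and Mann-Whitney tests. For the rank test, 3 against 3 arrays cannot go below an exact two-sided p of 0.1. Calls used the methods' thresholds. The number of arrays limits the precision. A p-value sets the difference between 2 group means against the spread of replicate arrays within the groups. It does not cover the spread between separately transfected lines. Members described in full are those called with the largest change, up to 8 per direction, or called in 2 or more comparisons. Other lists give at most 3 called genes per direction. Genes such as LIG1, POLD1 and MCM6 were added after their values were seen. The members and all lists were chosen with earlier results of these data known. Alternatives covered the added constant, a filter on dim genes, scaling, probe set choice, the arrays fitted, moderation and each array left out. The fitting script was tested on simulated data. Motif searches and figures used Python 3.11.15 and matplotlib 3.10.9.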

Additional observations from a re-analysis of the deposited data

How the results depend on the processing

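The number of members called held within 1.5 times under most settings, and the exceptions follow. On adjusted p alone, 10 members passed in LHR+/LHR-, 11 in LH4/LHR+, 5 in LH8/LHR+, 25 in LH20/LHR+, 9 in LH4/LH1 and 23 in LH20/LH8, in place of 0, 4, 0, 3, 3 and 2. With equal array medians or quantile normalization, 1 member (PIF1) was called in LHR+/LHR-. With 16 added in place of 1, 2 were called in LH4/LHR+, 1 in LH4/LH1 and 1 in LH8/LH4 (E2F2 and E2F8 were lost in each). In LH8/LH4, 1 was called with the mean of all probe sets of a gene (PIF1 and E2F2 were lost), and 1 with only the 2 groups compared in the fit. Leaving out each array in turn gave 0 to 1 calls in LHR+/LHR-, 2 to 5 in LH20/LHR+ (5 without LHR+ replicate 2), 1 to 3 in LH8/LH4 (1 without LH8 replicate 3), and 1 to 3 in LH20/LH8 (1 without LH20 replicate 1). In LH1/LHR+ 0 members were called under every setting run. With the mean of all probe sets E2F2 reversed in LH4/LHR+, to 0.042, and CDC25A was called there, PIF1 lost its call in LH20/LHR+, MCM6 was called in LH4/LH1 in place of PIF1 and E2F2, and in LH20/LH8 the called members were MCM6 and POLD3 in place of PIF1 and CDC6. The cause was not tested.

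The replicate numbers did not pair the samples, since the 45 correlations of deviations between same-numbered arrays of different groups lay between -0.022 and 0.054. With the replicate number as a block, 4 members were called in LH4/LHR+, 3 in LH20/LHR+, 3 in LH4/LH1, 3 in LH8/LH4 and 2 in LH20/LH8, as without it. Low signal limits E2F8 and the dim probe sets, and no detection call per array was used.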
